A study of Mus musculus with 2 samples.

Results

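The interferon-induced GTPases described here were 5 Gbp genes (Gbp2, Gbp3, Gbp4, Gbp5 and Gbp7, guanylate-binding proteins) and 5 Irg genes (Iigp1, Irgm1, Irgm2, Igtp and Tgtp2, immunity-related GTPases). They were taken by name and were 10 of the 19537 genes in the rows of both tables, of which 17476 had values in at least 1 library. CD11b+CD45int microglia, the resident macrophages of the brain, were sorted from PARK7/DJ-1 knock-out (KO) mice and wildtype (WT) littermates, and their RNA was counted cell by cell with Drop-seq, a droplet method that reads transcript 3′ ends and counts single molecules by unique molecular identifiers (UMIs). The KO mice carried the gene-trap allele Park7 Gt(XE726)Byg throughout the body on a C57BL/6NCrl background, and the WT mice carried the intact gene. All mice were 3 to 4 months old and had received lipopolysaccharide (LPS), a bacterial membrane component, intraperitoneally at 4 µg/g 24 h earlier. Each genotype was 1 library (labelled KO LPS and WT LPS in the plots) that pooled 2 mice, 1 female and 1 male, so genotype and library cannot be told apart. No untreated library was used here, so the values are levels after LPS and not responses to it.

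Both families are large GTPases that cells make after interferon gamma and, to a lesser degree, type I interferons. Gbp proteins assemble as coats on the vacuoles of parasites and on cytosolic bacteria and help caspase-11 and other inflammasome proteins to sense bacterial lipopolysaccharide. Among the Irg proteins, Iigp1 and Tgtp2 are effectors that load onto and break up pathogen vacuoles, while Irgm1, Irgm2 and Igtp sit on the cell's own membranes and keep the effectors inactive there. The genes lie in clusters. In the RefSeq annotation of GRCm38.p6, Gbp5, Gbp7, Gbp3 and Gbp2 lie in this order, with Gbp2b between the last pair, on chromosome 3 between bases 142496934 and 142638008, and Gbp4 lies on chromosome 5 (chr5:105115767-105139586). Irgm1 (chr11:48865245-48871420) and Tgtp2 (chr11:49057196-49064212) lie in 1 region of chromosome 11, and Igtp (chr11:58199556-58207592) and Irgm2 (chr11:58214977-58222783) are neighbours in another.

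RefSeq promoter sequences were used for 8 of the 10 genes, and the promoters of Gbp4 and Iigp1 were not analysed here. The 250 bases before the gene's start were searched on both strands for the interferon-stimulated response element (ISRE, GAAANNGAAA), bound by interferon regulatory factors, and for the gamma-activated site (GAS, TTCNNNGAA), an element of genes that interferon gamma induces. All 8 genes had an ISRE, against 2.98% of the 32851 promoters in the table. A GAS stood in 5 of the 8, against 7.02% of all promoters, and these 5 (Gbp5, Gbp7, Tgtp2, Igtp and Irgm2) held both motifs, as did 0.332% of all promoters. Gbp2, Gbp3 and Irgm1 held ISREs and no GAS match. Gbp3 has a further start in the table, whose window held neither. Such matches describe the letters in this window and do not show binding. Shown are Gbp7, the gene of highest level in both libraries, and the neighbours Igtp and Irgm2, whose ratios between the libraries were 0.300 and 0.933; capitals mark the ISRE and GAS matches, and all 3 are read 5′ to 3′ from the plus strand of GRCm38.p6 at chr3:142530086-142530335, chr11:58199306-58199555 and chr11:58214727-58214976.
Gbp7: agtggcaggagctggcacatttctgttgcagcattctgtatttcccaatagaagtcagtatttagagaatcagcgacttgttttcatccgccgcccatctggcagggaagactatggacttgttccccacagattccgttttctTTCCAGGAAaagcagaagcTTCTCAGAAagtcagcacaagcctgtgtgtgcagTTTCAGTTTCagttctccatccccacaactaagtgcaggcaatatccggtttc
Igtp: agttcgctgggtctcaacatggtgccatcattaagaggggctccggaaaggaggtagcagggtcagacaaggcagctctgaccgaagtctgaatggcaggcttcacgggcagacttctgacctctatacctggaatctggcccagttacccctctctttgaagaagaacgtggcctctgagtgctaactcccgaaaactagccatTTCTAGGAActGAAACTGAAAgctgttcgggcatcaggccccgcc
Irgm2: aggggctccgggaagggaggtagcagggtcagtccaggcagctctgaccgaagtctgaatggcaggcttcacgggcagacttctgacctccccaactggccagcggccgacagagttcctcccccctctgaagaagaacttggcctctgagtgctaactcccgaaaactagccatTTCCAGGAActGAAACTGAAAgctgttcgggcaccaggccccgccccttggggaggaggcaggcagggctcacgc
In Igtp and Irgm2 the GAS ended 2 bases before the ISRE, at the same spacing, and the Tgtp2 promoter had this spacing too. The GAS began 45 bases before the start in Igtp, 75 in Irgm2 and 81 in Tgtp2. In Gbp7 both GAS matches, 106 and 87 bases before the start, preceded the ISRE at 53 bases. No ISRE overlapped a GAS in any of the 8 genes. Gbp3 and Irgm1 each had a pair of ISRE matches that overlap each other, beginning 45 and 39 bases before the start in Gbp3 and 30 and 24 in Irgm1.

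Cells were barcodes with at least 500 UMIs and at least 100 genes, which gave 320 cells with 381305 UMIs in the KO library (median 964 UMIs per cell) and 1427 cells with 1989011 UMIs in the WT library (median 1065). The cells of both libraries shared 0 barcodes. Park7, which checks the labels, had 1 UMI in the KO library and 323 in the WT library. All 15 microglia markers were detected in both libraries, at a summed level of 45864 UMIs per 1e6 UMIs (CPM) in the KO library and 37920 CPM in the WT library. They were uneven: 6 of the 15 were at least 2-fold higher in the KO library (40.0%, against 13.5% of all genes with at least 20 UMIs), with P2ry12 at 3837 against 406 CPM, while C1qa stood at 2840 against 5298 CPM; their part in the members' difference was not tested. Markers of other cells differed too: choroid plexus genes stood at 2148 against 15.1 CPM, with 91.7% of the KO UMIs in 3 cells, astrocyte genes at 435 against 198 CPM, and neutrophil genes at 430.1 against 264 CPM. The last sum was mostly Csf3r, which microglia also express (164 and 384 UMIs). The defining neutrophil genes S100a8 and S100a9 had 0 UMIs in the KO library and 81 and 45 in the WT library. Of 12 markers of T and NK lymphocytes, the usual source of interferon gamma, 4 had a row, with 0 and 2 UMIs in all, and Ifng itself had missing values in both libraries. An alternative left out cells with 2 or more UMIs in any marker list of monocytes, neutrophils, border macrophages, lymphocytes, endothelial cells or choroid plexus. It kept 295 and 1377 cells and left the members' summed level at 426 and 994 CPM. Csf3r and the endothelial marker Bsg were not counted for it, and astrocyte, oligodendrocyte and neuron markers were not used.

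The 10 genes together were lower in the KO cells. They had 166 UMIs in the KO library, a level of 435 CPM (95% Poisson interval 372 to 507), and 1996 UMIs in the WT library, a level of 1004 CPM (960.0 to 1049). The level was 2.31-fold lower in the KO library (1.97 to 2.72, exact conditional binomial interval). Gbp7 alone held 52.4% of these UMIs in the KO library and 57.3% in the WT library, and without it the other 9 genes stood at 207 and 429 CPM, a ratio of 0.483 (0.379 to 0.609). The 5 Gbp genes (309 against 745 CPM, ratio 0.416, 0.342 to 0.502) and the 5 Irg genes (126 against 259 CPM, ratio 0.486, 0.354 to 0.654) were lower by similar factors, and their intervals overlap. With 1 library per genotype no test between genotypes is possible: every interval covers counting error only and not the spread between mice. In such sums, fewer cells making a transcript and less transcript per cell cannot be told apart.

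By a fixed fold rule, 5 of the 8 members with at least 20 UMIs over both libraries were at least 2-fold lower in the KO library (Gbp2, Gbp7, Iigp1, Irgm1 and Igtp), against a background of 15.3% of the 9085 genes with as many UMIs. No member was at least 2-fold higher, against 13.5% of those genes. Log2 ratios were taken with a prior count of 0.5. All 8 lay below 0, with a median of -1.16, where the median of all genes was 0.03 and the middle of the distribution ran from -0.61 to 0.62 (quartiles). Irgm1 stood just inside the 2-fold line, with 15.1% of all genes as low or lower, and Gbp5 at -0.98 just outside it, although its ratio without the prior count was 0.484. Since the WT library held more UMIs, the minimum of 20 was reached in the KO library itself only by Gbp7 and Irgm1, and the other 6 members passed through their WT counts. Gbp4 and Tgtp2 remained under the minimum.

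**Figure D1:**
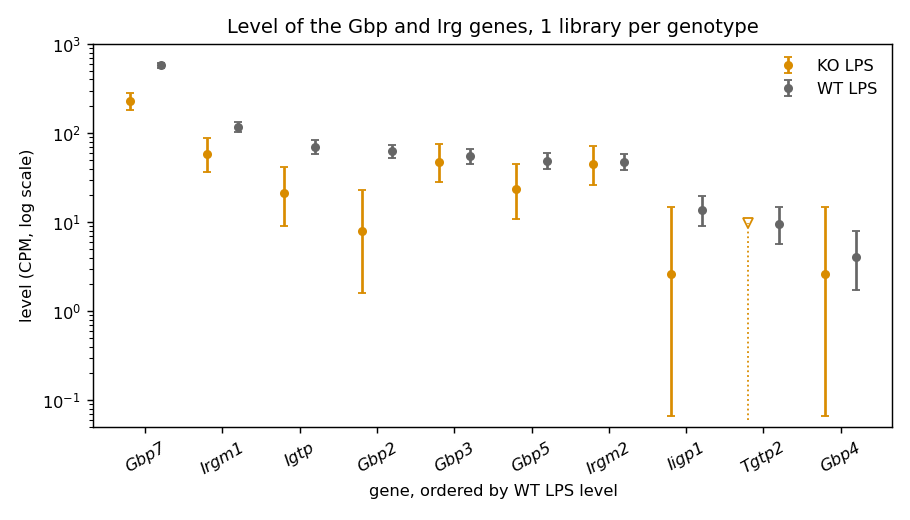
Level of each gene in UMIs per 1e6 UMIs (CPM, log axis) in the cells of KO LPS (orange) and WT LPS (grey), 1 library each. Points are levels, bars exact 95% Poisson intervals, and the open triangle is the upper bound for Tgtp2, which had 0 UMIs in KO LPS. Gbp7 is highest in both libraries, at 228 and 575 CPM, and Gbp3 and Irgm2 lie close together in both.

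Gbp7, a member that coats vacuoles and has been tied to their autophagic clearance and to oxidase assembly, was the most abundant. It had 87 UMIs in 54 KO cells (228 CPM, 183 to 281) and 1143 UMIs in 585 WT cells (575 CPM, 542 to 609). Its level ratio was 0.397 (0.316 to 0.494), and the intervals of both levels stood well apart. Gbp2, which is recruited to Toxoplasma vacuoles and to bacteria and is needed for full caspase-11 activation, had the lowest ratio among the 8 members over the 20-UMI minimum. It had 3 UMIs in 3 KO cells (7.87 CPM, 1.62 to 23.0) and 124 UMIs in 94 WT cells (62.3 CPM, 51.9 to 74.3). Its ratio of 0.126 has a wide interval (0.0257 to 0.377) because of the 3 KO counts, and 2.56% of all genes had a log2 ratio as low or lower.

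Gbp5, which promotes assembly of the NLRP3 inflammasome, had 9 UMIs in the KO library (23.6 CPM, 10.8 to 44.8) and 97 in the WT library (48.8 CPM, 39.5 to 59.5). Its ratio was 0.484, with an upper bound of 0.957, so that the interval only just lay below 1. Gbp3, another gene of the cluster on chromosome 3, differed little: 18 UMIs (47.2 CPM) and 109 UMIs (54.8 CPM), ratio 0.861 (0.492 to 1.43). That interval holds a 2-fold lower level as well as equal levels. Gbp4 was rare, with 1 UMI in the KO library (2.62 CPM) and 8 in the WT library (4.02 CPM). Its ratio of 0.652 (0.0147 to 4.86) leaves the direction undetermined at this depth. RefSeq lists Gbp4 as an older symbol of Gbp3, and the annotation behind the counts was not stated, so the split between these rows is uncertain.

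Of the Irg regulators, Irgm1, which protects lysosomes and mitochondria from the effector GTPases, was the most abundant. It had 22 UMIs in 20 KO cells (57.7 CPM, 36.2 to 87.4) and 235 UMIs in 181 WT cells (118 CPM, 104 to 134), a ratio of 0.488 (0.300 to 0.757). Igtp, also known as Irgm3, sits on the endoplasmic reticulum and lipid droplets. It had 8 UMIs in the KO library (21 CPM, 9.06 to 41.3) and 139 in the WT library (69.9 CPM, 58.7 to 82.5), a ratio of 0.300 (0.127 to 0.608). Irgm2, a Golgi-associated regulator that holds back caspase-11 activation, stood at nearly equal levels. It had 17 UMIs (44.6 CPM, 26.0 to 71.4) against 95 UMIs (47.8 CPM, 38.6 to 58.4), a ratio of 0.933 (0.522 to 1.57). Its direction was not fixed: the log2 ratio was -0.07, and 0.45 when every cell was thinned to 500 UMIs. In the KO library, 5 of the 17 Irgm2 UMIs came from 3 cells. Igtp and Irgm2, whose promoters above carry the GAS and ISRE at the same spacing, thus had point ratios on either side of the members' median, with intervals that overlap slightly.

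The effector GTPases were scarce in both libraries. Iigp1, also called Irga6, which loads onto Toxoplasma vacuoles, had 1 UMI in the KO library (2.62 CPM) and 27 UMIs in the WT library (13.6 CPM, 8.95 to 19.8). The WT UMIs came from 14 cells, 1 of which held 9. Its ratio of 0.193 has an interval from 0.00472 to 1.17, which includes 1. Tgtp2, an effector of the Irgb6 type, which is among the first to reach such vacuoles, had 0 UMIs in the KO library, which allows up to 9.67 CPM, and 19 UMIs in 18 WT cells (9.55 CPM, 5.75 to 14.9). The interval of its ratio reached up to 1.12, so that no difference could be detected from these counts. Over its last 400 bases Tgtp2 is 100% identical to Tgtp1, which has no row in the matrices, so reads of both copies cannot be told apart and the Tgtp2 counts are uncertain. Gbp5 shares a stretch of 75 bases at 96.0% identity with Grem1 in its last 400 bases, and the remaining members had no match of this kind to a gene with a row.

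**Figure D2:**
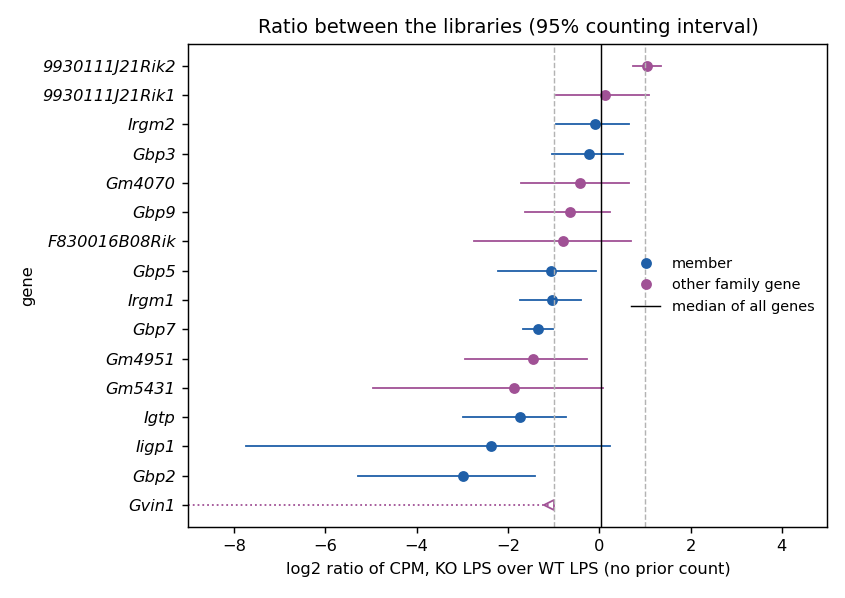
Ratio of CPM in KO LPS over WT LPS (log2, no prior count) for the 8 members (blue) and 8 other family genes (purple) with at least 20 UMIs over both libraries. Lines are 95% counting intervals, the open triangle is the upper bound for Gvin1 with 0 UMIs in KO LPS, dashed lines mark 2-fold and the black line the median of all genes (0.03). All 8 member points lie left of 0, and 9930111J21Rik2 lies farthest right at a ratio of 2.07.

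The order of the levels was the same at the top of both libraries. A UMI marks 1 transcript end whatever the transcript's length, so the levels were compared without a division by length. In the WT library, Gbp7 was 4.86-fold (4.22 to 5.62) above Irgm1, and Irgm1 was 1.69-fold (1.37 to 2.10) above Igtp. Igtp, Gbp2, Gbp3, Gbp5 and Irgm2 then formed a group between 69.9 and 47.8 CPM in which no neighbours differed beyond counting error. Irgm2 stood 3.52-fold (2.27 to 5.61) above Iigp1, and Iigp1, Tgtp2 and Gbp4 again did not differ from their neighbours beyond counting error. In the KO library only the step from Gbp7 to Irgm1 exceeded counting error, at 3.95-fold (2.45 to 6.63). Gbp2 ranked 4 in the WT library and 7 in the KO library, and Gbp3 and Irgm2 took the larger shares of member UMIs in the KO library (10.8% and 10.2%, against 5.46% and 4.76% in the WT library).

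To compare cells at equal depth, each cell was thinned to 500 UMIs. At least 1 UMI of the 10 genes was then seen in 54 of 320 KO cells, 16.9% (12.9 to 21.4, exact Clopper-Pearson interval), and in 475 of 1427 WT cells, 33.3% (30.8 to 35.8). Without thinning the shares were 31.2% and 57.8%. Barcodes of 1 to 100 UMIs, which lie below the limit for cells and can hold free RNA or the remains of broken cells, carried the members too. Drawing 500 UMIs from them would give 17.4% in the KO library and 39.8% in the WT library. For the 10 genes together, the share of cells in each library was thus at or below that level. It is not read as a share of cells that express these genes. The families differed: in the WT library the Irg genes were in 10.7% of cells against 8.20%, and the Gbp genes in 25.9% against 34.4%. The drawn share assumes UMIs spread independently over cells, and clustering lowers a share at an equal level. Free RNA and RNA of broken microglia cannot be told apart in these barcodes.

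The barcodes of 1 to 100 UMIs also showed the gap between the libraries. They held 76 member UMIs in the KO library (382 CPM, 301 to 479) and 320 in the WT library (1013 CPM, 905 to 1131), a ratio of 0.377 (0.290 to 0.486). In the WT library the level in cells over that in these barcodes was 0.990 (0.880 to 1.12) for all members, and in the KO library it was 1.14 (0.863 to 1.51). Within the WT library Irgm1 was 1.55-fold (1.02 to 2.47) and Igtp 2.21-fold (1.16 to 4.70) higher in cells. For Irgm2 (1.01, 0.580 to 1.87) and Iigp1 (0.857, 0.325 to 2.85) the interval included 1. The Irgm1 and Igtp shares of cells, 5.19% (4.09 to 6.47) and 3.08% (2.25 to 4.12), were above the 3.73% and 1.57% that the low barcodes give. For Gbp7 the reverse held for the share, 20.6% (18.5 to 22.8) of WT cells against 28.2%, and its level in cells was 0.868 (0.749 to 1.01) of that in the low barcodes. Whether free RNA has a part in the difference between the libraries was not tested. Subtracting each library's own low-barcode profile at 10% of the cells' UMIs gave a summed log2 ratio of -1.18 against -1.20. This subtraction cannot decide the question. The profile holds the members near their level in cells, so taking it away can change the ratio little.

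**Figure D3:**
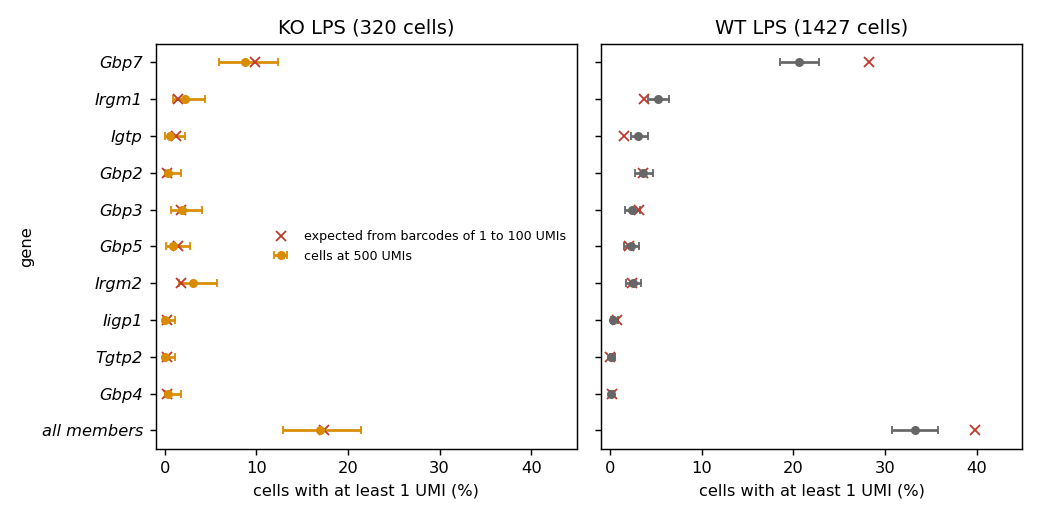
Cells with at least 1 UMI of each gene (%) after thinning to 500 UMIs, in KO LPS (left) and WT LPS (right). Points carry exact 95% Clopper-Pearson intervals, and crosses give the share expected if the 500 UMIs came from barcodes of 1 to 100 UMIs. In WT LPS the Gbp7 point (20.6%) lies left of its cross (28.2%), while the Irgm1 and Igtp points lie right of theirs.

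The members were spread thinly over the WT cells. At 500 UMIs per cell, 952 cells (66.7%) had 0 member UMIs, 337 (23.6%) had 1, 98 (6.87%) had 2, and the remaining 40 had 3 to 7. The 10% of cells richest in them, 143 cells, held 50.9% of all member UMIs. In the KO library, where the counts were sparser, this share was 65.6%. Counts this sparse gather in few cells by sampling alone, so the share is not read as a subset of expressing cells. Over cells, the variance of Gbp7 UMIs was 1.28 times its mean, and 96.8% of the 5769 genes with at least 20 UMIs had a ratio as low or lower. Irgm1 (1.16) and Gbp3 (1.14) lay between the median of those genes (1.06) and their 90th percentile (1.19). Igtp (1.01) lay below that median, near the value of 1 that counting alone gives. In the KO library, 266 of 320 cells (83.1%) had 0 member UMIs, 47 had 1, and 7 had 2 or 3.

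WT cells with a UMI of some members held more of the others. UMIs of more than 1 member gene appeared in 82 WT cells (5.75%) and in 4 KO cells (1.25%), and 3 or more genes in 13 WT cells (0.911%) and in 0 of the 320 KO cells. The latter allows a share of up to 1.15% (exact Clopper-Pearson), so that no difference was detectable for 3 or more genes. The 32 WT cells with a Gbp5 UMI held the other 9 genes at 2125 CPM, against 872 CPM in cells without one, 2.44-fold higher (1.67 to 3.44). The same comparison gave 2.03 (1.37 to 2.91) for Irgm2, 1.76 (1.23 to 2.44) for Gbp2 and 1.56 (1.20 to 2.01) for Gbp7. Iigp1 gave 3.44 (1.48 to 6.82) from 5 cells. For Irgm1 (1.21, 0.846 to 1.69), Igtp (1.08, 0.665 to 1.67) and Gbp3 (1.53, 0.962 to 2.32) the interval included 1, as it did for Tgtp2 (2.12, 0.256 to 7.69) and Gbp4 (0, 0 to 7.81), with a UMI in 2 cells and 1 cell. These intervals treat each UMI as independent and hold counting error only. Over WT cells the variance of the summed member UMIs was 1.42 times their mean, so the intervals are too narrow. The cells are of 1 library and are not replicates. Correlations between single members over the 1427 cells were weak, with a median Pearson r of 0.00 over 45 pairs and a range from -0.03 to 0.13, and in counts this sparse they are no finding.

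**Figure D4:**
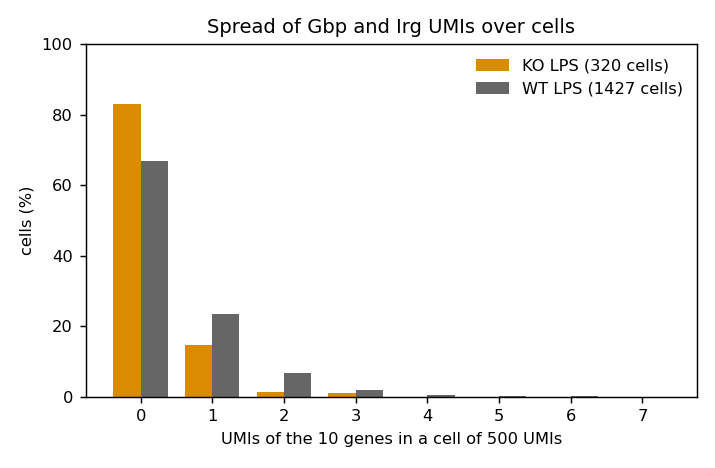
Share of cells (%) by the number of UMIs of the 10 genes in a cell thinned to 500 UMIs, for KO LPS (orange, 320 cells) and WT LPS (grey, 1427 cells). Most cells hold 0 (83.1% and 66.7%), and WT LPS alone reaches beyond 3 UMIs.

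The pooled mice could be separated only in part. Cells with an Xist UMI and no UMI of 4 Y-linked genes were 200 in the KO library and 565 in the WT library, and cells with a Y-linked UMI and no Xist UMI were 12 and 195. In the Xist cells the members stood at 453 CPM (375 to 542) in the KO library and 1131 CPM (1059 to 1207) in the WT library, a ratio of 0.400 (0.328 to 0.485). In the Y-linked cells they stood at 554 CPM (239 to 1091), from 8 UMIs, and 888 CPM (786 to 1000), a ratio of 0.624 (0.267 to 1.25) whose interval includes 1. Of those 8 UMIs, 5 were Irgm2, 2 were Gbp2 and 1 was Igtp, and Gbp7 had 0 in the KO library against 152 in the WT library. Irgm2, with 5 UMIs against 7, was thus 15.2-fold (3.80 to 55.6) higher in these 12 KO cells. Within the WT library the Xist cells were 1.27-fold (1.11 to 1.46) above the Y-linked cells. In cells with neither kind of UMI the members stood at 399.7 CPM in 99 KO cells and 878 CPM in 587 WT cells, so the gap between the libraries was seen there as in the Xist cells.

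**Figure D5:**
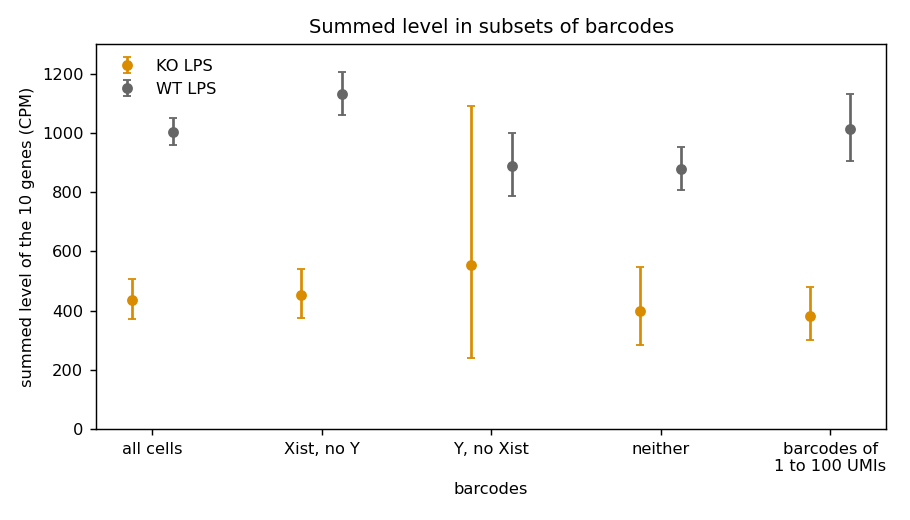
Summed level of the 10 genes (CPM) in subsets of barcodes of KO LPS (orange) and WT LPS (grey), with exact 95% Poisson intervals. The intervals stand apart in all cells, Xist cells, cells with neither kind of UMI and barcodes of 1 to 100 UMIs, and overlap in the Y-linked cells, where KO LPS has 8 UMIs in 12 cells.

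The other genes of both families did not share a direction. Of 25 listed names 15 had a row, and 8 reached 20 UMIs in the sum of the libraries. Of these, 3 were at least 2-fold lower in the KO library (37.5%, against 15.3% of all genes). Another 1 was at least 2-fold higher (12.5%, against 13.5%), and the median log2 ratio was -0.61. The 3 lower genes, Gvin1, Gm5431 and Gm4951, had 0, 2 and 6 KO UMIs and reached the minimum only through their WT counts. The one higher gene, 9930111J21Rik2 (also known as Irgb5), lies beside Tgtp2 at chr11:49037660-49051242. RefSeq lists the synonym 9930111J21Rik for both it and 9930111J21Rik1, and shared 3′ ends were searched for the members only, so its counts are uncertain. It had 117 UMIs in 79 KO cells (307 CPM, 254 to 368) and 295 UMIs in 235 WT cells (148 CPM, 132 to 166), a ratio of 2.07 (1.66 to 2.57). In the KO library it was the most abundant gene of either family. Gvin1, a very large inducible GTPase, had 0 UMIs in the KO library and 43 in the WT library (21.6 CPM), so that its ratio was at most 0.467 (upper end of the 95% interval).

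Among the remaining family genes, the Irg gene Gm4951 had a ratio of 0.368 (0.131 to 0.835; 15.7 against 42.7 CPM). Gm5431 had 2 UMIs against 38, a ratio of 0.275 (0.0321 to 1.06). For Gbp9 (31.5 against 48.8 CPM, 0.645, 0.322 to 1.18), F830016B08Rik (10.5 against 18.1 CPM, 0.580, 0.150 to 1.62), Gm4070 (21 against 28.2 CPM, 0.745, 0.307 to 1.57) and 9930111J21Rik1 (28.8 against 26.1 CPM, 1.10, 0.519 to 2.14) the interval included 1. 9930111J21Rik1 overlaps Psme2b in RefSeq, and the strand setting of the counts was not stated, so its counts are uncertain. Summed, the 15 other genes stood at 422 CPM in the KO library and 374 CPM in the WT library, a ratio of 1.13 (0.946 to 1.34). Without 9930111J21Rik2 the other 14 stood at 115 and 226 CPM, a ratio of 0.511 (0.366 to 0.698), so that 1 gene turned the direction of the sum.

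The pathway that switches these genes on was covered by 30 listed genes of interferon receptors, signalling and factors. Of the 25 with at least 20 UMIs, 8 were at least 2-fold lower in the KO library (32.0%, against 15.3% of all genes). None, 0, was higher (against 13.5%), and the median log2 ratio was -0.35. Most of the 8, among them Usp18 with 0 KO UMIs, reached the minimum only through their WT counts. The receptor chains for interferon gamma were near equal: Ifngr1 stood at 899.5 against 982 CPM (ratio 0.916, 0.814 to 1.03) and Ifngr2 at 223 against 279 CPM (0.799, 0.628 to 1.01). Irf1, an interferon-induced factor that acts on ISREs, stood at 52.5 against 104 CPM (0.506, 0.303 to 0.803). Counting genes of 50 UMIs or more, the lowest was Usp18, a brake on type I interferon signalling, with 0 UMIs against 65 (ratio at most 0.305), and the highest was the kinase Jak1, at 388 against 246 CPM (1.58, 1.30 to 1.90).

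A further list held 35 genes of processes in which these GTPases act, such as inflammasomes, autophagy and lysosomes. Of the 32 with at least 20 UMIs, 3 were at least 2-fold lower in the KO library (9.38%, against 15.3% of all genes) and 4 higher (12.5%, against 13.5%), and the median log2 ratio was -0.00 (0.03 over all genes). The lowest with at least 50 UMIs was Il1b, the cytokine released after inflammasome cleavage, with 1 UMI in the KO library and 322 in the WT library (ratio 0.0162, 0.000409 to 0.0909). The highest was Ambra1, a regulator of autophagy initiation, at 39.3 against 19.1 CPM (2.06, 1.05 to 3.83).

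Genes whose pattern over WT cells was most like the summed members were sought among the 2044 genes that reached 200 UMIs there. The 8 highest Pearson correlations over 1427 cells were those of Fcgr1, Trim30a, Pyhin1, Parp14, AI607873, Usp25, Slfn5 and Paip2, all between 0.08 and 0.10, where the 99th percentile of all candidates was 0.07. Correlations of this size in sparse counts are a description only. Between the libraries, Fcgr1, the high-affinity receptor for immunoglobulin G, stood at 265 against 565 CPM and Trim30a at 254 against 523 CPM. Pyhin1 had 7 UMIs against 330, Parp14 stood at 68.2 against 206 CPM, Slfn5 had 2 UMIs against 242 and AI607873 had 1 against 619. Usp25 (110.1 against 139.8 CPM) was close between the libraries and Paip2 (218 against 119 CPM) was higher in the KO library.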

How the data were processed

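Each library came as a table that the authors deposited as raw UMI counts, with genes in rows and barcodes in columns, neither normalised nor filtered to cells. Missing values were read as 0; no member had one. Of the 19537 genes in the rows, 2061 had missing values in both libraries. The submitters' processing notes name bcl2fastq 2.0, STAR and the builds mm9 and mm10. The counting program, annotation and strand setting are not given in the sources used here. Every cell column was assigned to a library by its name (columns of no sample: 0).

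UMIs were summed over cells per library and given per 1e6 UMIs (CPM), where 1 UMI was 2.62 CPM in the KO library and 0.503 CPM in the WT library. Cells held 55.7% and 64.9% of all UMIs of the libraries. Intervals are at 95% and reflect counting error alone, and the genotypes were not tested against each other. The study's test of cells as replicates was not used. Gene lists, members and the rule for the named genes (all members, family genes with at least 20 UMIs, Irf1, Ifngr1, Ifngr2, the highest and lowest gene of a list with at least 50 UMIs and the 8 genes most like the members) were chosen with earlier results of these data known. A further gene that this rule names is not reported here. Doublets were left in; an alternative dropped the 5% of cells with most UMIs. Thinning used a fixed seed. The ratio and its interval were tested on simulated Poisson counts without spread between cells or mice, which checks the calculation only. Scripts ran on Python 3.11.15 with pandas 2.3.3, matplotlib 3.10.9, scipy 1.17.1 and numpy 2.4.6. Sequences and positions are from RefSeq, GRCm38.p6. Marker lists were summed the same way. Those not given above stood, KO against WT, at 28.8 and 46.8 CPM for monocytes, 62.9 and 47.3 for border macrophages, 99.7 and 58.3 for B lymphocytes, 105 and 74.4 for oligodendrocytes, 296 and 282 for endothelial cells and 55.1 and 66.4 for neurons.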

Additional observations from a re-analysis of the deposited data

How the results depend on the processing

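The summed log2 ratio of -1.20 ranged from -1.51 to -0.60 over 23 alternatives and was below 0 in each. An alternative set the median ratio to 1 over the 1511 genes with at least 50 UMIs in each library. It shifts every gene by 0.31 on the log2 scale and gave -1.51. Over the 9085 genes with at least 20 UMIs in both libraries together, the median log2 ratio was 0.03. The Y-linked cells gave -0.60. The count of members at least 2-fold lower, 5, ranged from 4 to 6 except in the Y-linked cells, where it was 2 of 3 tested. Irgm1 and Gbp5 crossed the 2-fold line between settings (log2 ratios of -1.89 to -0.85 and -1.28 to -0.72). Irgm2 ranged from -0.43 to 3.96 and Gbp4 from -1.61 to 2.16, on both sides of 0. Leaving out each member in turn gave -1.29 to -1.04. Alternatives chosen after seeing the data gave -1.22 (without cells of the marker lists named for this above) and -1.12 (cells with neither Xist nor Y-linked UMI).

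The share of cells with a member UMI differed by -16.4 percentage points (-21.2 to -11.6). It differed by -22.9 at 1000 UMIs per cell, -7.5 for at least 2 UMIs, -26.6 without thinning and -3.2 in the Y-linked cells. The 10% of WT cells richest in members held 41.0% at 1000 UMIs and 46.1% without thinning, against 50.9%. In the 12 Y-linked cells of the KO library the log2 ratios of Gbp2 (1.69), Gbp4 (1.60), Iigp1 (0.50), Irgm2 (3.96), Igtp (0.64) and Tgtp2 (2.83) were above 0. Gbp2, Irgm2 and Igtp had 2, 5 and 1 KO UMIs there. Gbp4, Iigp1 and Tgtp2 had 0 KO UMIs against 3, 7 and 1 WT UMIs. The sign of the log2 values of these last 3 comes from the prior count of 0.5 alone and shows no higher level. The log2 ratio of WT cells over low barcodes lay between -0.01 and 0.15 in the alternatives. No paired analysis was possible because each genotype was 1 library. The Xist and Y-linked cells match the sexes in part, and their summed ratios were 0.400 (0.328 to 0.485) and 0.624 (0.267 to 1.25). Depth limits Gbp4, Iigp1 and Tgtp2, each with 0 or 1 UMI in the KO library.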

Other observations

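The inflammasome genes near which the Gbp proteins act were looked at after their values were seen. The adaptor Pycard stood at 265 CPM in the KO library and 446 CPM in the WT library (ratio 0.593, 0.478 to 0.730), Casp1 at 131 against 211 CPM (0.621, 0.454 to 0.834), Nlrp3 at 110.1 against 180.5 CPM (0.610, 0.432 to 0.842) and Gsdmd at 83.9 against 126 CPM (0.668, 0.447 to 0.967). Casp4, the mouse caspase-11 gene, stood at 55.1 against 79.4 CPM (0.693, 0.418 to 1.10), with an interval that includes 1. Above a ratio of 1, with intervals that include it, stood the DNA sensor Aim2 (372 against 313 CPM, 1.19, 0.984 to 1.43), the flagellin sensor Naip5 (129 against 94.0 CPM, 1.37, 0.977 to 1.88) and the cytokine Il18 (115 against 85.0 CPM, 1.36, 0.952 to 1.90). Of the ATG8 proteins, which Irgm proteins are linked to, Map1lc3a stood at 44.6 against 7.04 CPM (6.33, 2.94 to 13.9), Gabarapl1 at 31.5 against 9.55 CPM (3.29, 1.46 to 7.15) and Gabarap at 268 against 181 CPM (1.47, 1.17 to 1.84). For Gabarapl2 (60.3 against 38.2 CPM, 1.58, 0.945 to 2.55) and Map1lc3b (47.2 against 55.3 CPM, 0.854, 0.488 to 1.41) the interval included 1. The partner list that holds these genes had 16 log2 ratios below 0 and 16 above 0, with a median of -0.00, so that they are named as single values and show no direction of the list.

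By cell depth, the members stood at 478, 339.8, 375 and 579.8 CPM in KO cells and at 888, 1052, 990.0 and 1035 CPM in WT cells, for cells of 500 to 750, 750 to 1000, 1000 to 2000 and at least 2000 UMIs. The KO level was the lower in each of these classes.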
